A study of Mus musculus and Homo sapiens with 12 samples.

Results

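The regions described here are 844 SIRT7 peaks that lie in 7 fixed stretches of the genome holding large clusters of olfactory receptor genes, out of 116941 peaks in 2 deposited peak lists. A peak was counted in a stretch, called an olfactory receptor window below, if its midpoint fell inside it, so position alone chose the members. In mouse embryonic fibroblasts (MEFs) 640 of 72622 peaks (0.881%) lay in 3 windows of 14.7 Mb in all, on chromosomes 2 (85.0 to 90.2 Mb), 7 (109.0 to 116.0 Mb) and 9 (37.5 to 40.0 Mb) of build mm9. In K562 cells 204 of 44319 peaks (0.460%) lay in 4 windows of 6.5 Mb in all, on chromosome 1 (247.6 to 248.9 Mb) and chromosome 11 (4.3 to 6.3, 55.0 to 56.6 and 57.8 to 59.4 Mb) of build hg19. The 3 windows on chromosome 11 are called the short-arm, first long-arm and second long-arm windows.

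The assay was ChIP-seq, in which chromatin bound by an antibody, here against SIRT7, is pulled down and its DNA sequenced. The MEFs were wild-type cells of 129s2 mice, taken from embryos at day 14.5 and used at passages 2 to 3. K562, labelled wild type, is a human leukaemia line with an abnormal chromosome complement, although the growth protocol gives it the ATCC catalogue number of HT-1080, a fibrosarcoma line, and its identity was not tested. The series had 12 samples, including H3K18Ac ChIP in wild-type and SirT7-/- MEFs and in K562 and an input of each cell type, which were not analysed here. Each cell type had 2 SIRT7 samples and 1 peak list, recorded under replicate 1, so no replicate error can be given.

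SIRT7 is a sirtuin of the nucleus that removes acetyl groups from lysine 18 of histone H3, and the series' title ties it to L1 retrotransposons and the nuclear lamina. Olfactory receptors are the G protein-coupled receptors that detect odorants in the nose. Their genes form one of the largest gene families of mammals and lie in tandem clusters. In an olfactory neuron a single allele of the family is expressed, and in other cell types the clusters are kept silent. Such clusters are known to be poor in GC, rich in L1 repeats and often in contact with the nuclear lamina.

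In the RefSeq annotation of mouse assembly GRCm38.p6, 1428 genes on 19 chromosomes carry an olfactory receptor symbol. Chromosomes 2, 7 and 9, those of the MEF windows, held the most, with 377, 294 and 179. The longest run of neighbouring receptor genes, with at most 5 other genes between 2 members, had 293 members on chromosome 2, of which 222 were protein coding and 71 pseudogenes. On chromosomes 7 and 9 it had 93 and 127. All 3 chromosomes thus also held receptor genes outside their longest run. Other genes lay inside these runs, 39, 11 and 17 on chromosomes 2, 7 and 9, and the run on chromosome 7 lay between Rrm1 and Hbb-bt. GRCm38 positions differ from mm9, so genes were not joined to peaks or windows and the label of a window was not checked gene by gene. How many receptor genes lay in comparison windows was not tested. Genes of hg19 were not used here.

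SIRT7 peaks were denser in all 7 olfactory receptor windows than in the stretches of the same length on the same chromosome (comparison windows). The density was 1.72 to 1.84 times that of the comparison windows in MEFs and 1.81 to 2.28 times in K562. Each ratio carried a 95% interval above 1. These intervals cover counting error only and take peaks as independent. Comparison windows varied by more than counting error, so the place of each window among them is given beside the ratio. No p-value is given, since windows of 1 list are not replicates.

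The MEF chromosome 2 window held 229 peaks, or 44.0 per Mb (95% Poisson interval 38.5 to 50.1). Its 32 comparison windows had a median of 25.4 per Mb and ranged from 7.50 to 43.8, so none was as dense, although the densest held 228 peaks, 1 fewer. Against their pooled density of 24.8 per Mb the ratio was 1.77 (1.54 to 2.02). The window stood 1.91 SD above the mean of the comparison windows.

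On MEF chromosome 7 there were 304 peaks in the window, a density of 43.4 per Mb (38.7 to 48.6). In its 20 comparison windows it was 25.2 per Mb, so the ratio came to 1.72 (1.53 to 1.94). Only the stretch from 18 to 25 Mb was denser, with 317 peaks. On MEF chromosome 9 the 107 peaks gave 42.8 per Mb (35.1 to 51.7), where 46 comparison windows had 23.2 per Mb. This was a ratio of 1.84 (1.51 to 2.24). There 2 comparison windows were denser, from 17.5 to 20 Mb with 121 peaks and from 80 to 82.5 Mb with 114. Both windows stood 1.73 SD above the mean of their comparison windows.

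In K562 the chromosome 1 window was the densest, with 49 peaks or 37.7 per Mb (27.9 to 49.8). All 174 comparison windows were sparser, with a median of 16.2 and a highest value of 34.6 per Mb. The ratio was 2.28 (1.68 to 3.02), and the window stood 3.46 SD above the mean. Of the windows studied it was farthest from its chromosome's average.

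The short-arm window of chromosome 11 had a density of 31.5 per Mb (24.2 to 40.3), from 63 peaks. The comparison density was 14.7, and the ratio 2.14 (1.64 to 2.75). Of its 62 comparison windows 61 had fewer peaks. The first long-arm window held 50 peaks, 31.2 per Mb (23.2 to 41.2), with a ratio of 2.15 (1.59 to 2.85) and 75 of 77 comparison windows below it. The second long-arm window held 42, 26.2 per Mb (18.9 to 35.5), with the lowest ratio of the 4, 1.81 (1.30 to 2.45), and 74 of 78 comparison windows below it. The 3 windows of chromosome 11 share most of their comparison stretches, so their ratios are not independent. A stretch near 48 to 50 Mb of that chromosome was denser than each of the 3, with 66 peaks from 48.3 to 50.3 Mb, 52 from 48.6 to 50.2 Mb and 54 from 48.2 to 49.8 Mb in the respective window lengths. For the second long-arm window the stretch from 6.6 to 8.2 Mb, beyond the end of the short-arm window, was denser too, with 53 peaks, as were those from 22.6 to 24.2 Mb with 48 and from 24.2 to 25.8 Mb with 49.

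**Figure D1:**
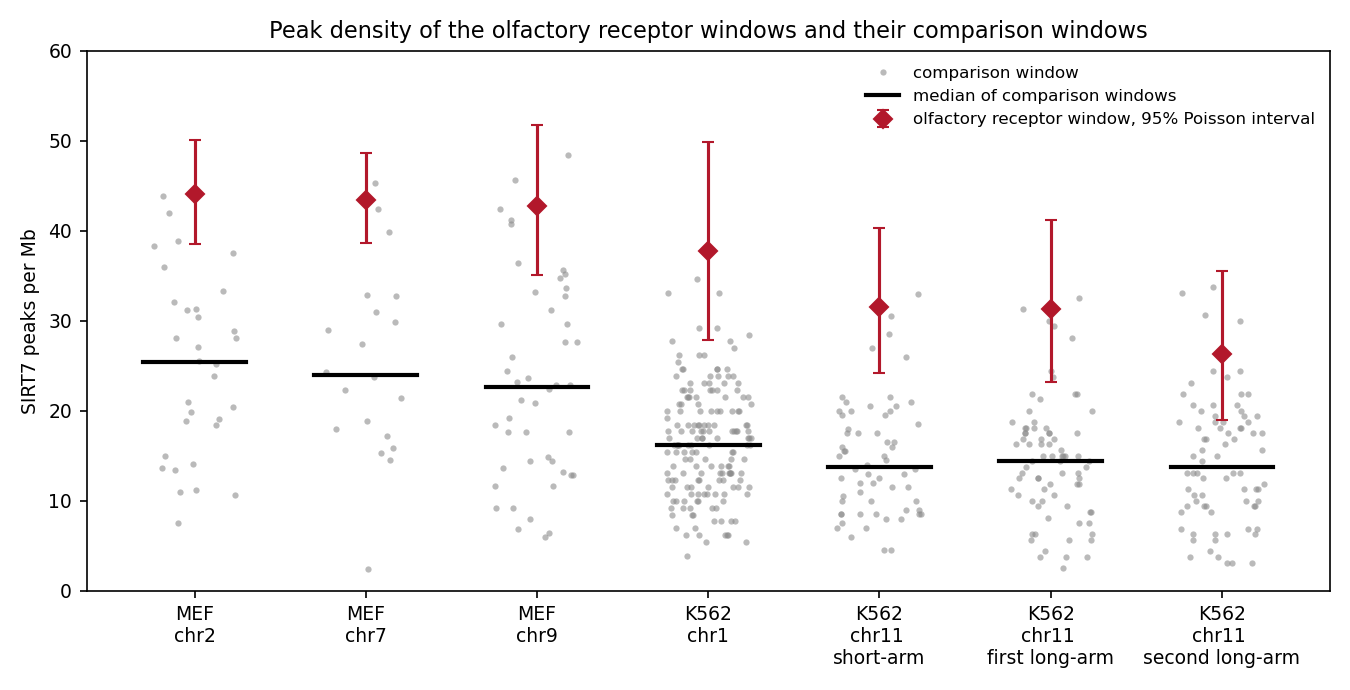
SIRT7 peaks per Mb (y axis) in each olfactory receptor window (red diamond, bar: 95% Poisson interval) and in its comparison windows of the same length on the same chromosome (grey points, black line: their median). The red value lies above every grey point for MEF chr2 and K562 chr1 and near the top of the grey points in the other 5 windows.

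The windows of a list did not differ from each other beyond counting error. For the 9 pairs within a list, 3 in MEFs and 6 in K562, the interval of the density ratio held 1 in each. The MEF densities of 44.0, 43.4 and 42.8 per Mb were nearly equal, and the ratio of chromosome 2 to chromosome 7 was 1.01 (0.850 to 1.21). The widest difference was between the chromosome 1 and second long-arm windows of K562, 1.44 (0.931 to 2.22). The depth behind each list is unknown, so MEF and K562 densities were not compared.

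Against the same-length stretches of all autosomes, a comparison added after the data were seen, the ratios were 1.59 to 1.63 in MEFs and 1.76 to 2.52 in K562. In MEFs 428 of 448 such stretches had fewer peaks than the chromosome 2 window, 317 of 329 fewer than the chromosome 7 window and 845 of 945 fewer than the chromosome 9 window, where 94 had more. In K562 the chromosome 1 window exceeded 2063 of 2073 stretches, the short-arm window 1339 of 1351, and the first and second long-arm windows 1664 and 1603 of 1685. Dense stretches without these windows therefore existed in both lists.

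The neighbouring sequence gave another picture for the chromosome 1 and short-arm windows of K562. Relative to the 2 flanking stretches of the same length, the chromosome 1 window was 1.40 times as dense (0.907 to 2.17) and the short-arm window 1.31 times (0.940 to 1.82), and both intervals held 1. The stretch left of the chromosome 1 window had 29.2 peaks per Mb, and the short-arm window lay between stretches of 21.0 and 27.0 per Mb. The right flank of the chromosome 1 window was cut to 0.259 Mb by the last peak of the chromosome. The first long-arm window had a ratio of 4.61 (2.67 to 8.27) to its flanks, of which the left held 6 peaks and the right overlapped the second long-arm window, whose sequence was left out. Most of the left flank was a peak-free stretch of over 1 Mb, and without it, a step added after the data were seen, the ratio was 2.44 (1.41 to 4.38). For the second long-arm window the ratio to its flanks was 1.79 (1.14 to 2.83).

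In MEFs all 3 windows were denser than their flanks. The ratio was 1.50 (1.26 to 1.79) on chromosome 2, where the left flank had 38.8 per Mb and the right flank 19.8. It was 2.41 (2.03 to 2.86) on chromosome 7, with flanks of 18.9 and 17.1 per Mb. On chromosome 9 it was 2.12 (1.60 to 2.81), with 33.6 on the left and 6.80 on the right. The left flank of the chromosome 2 window had a density within the window's own Poisson interval (38.5 to 50.1). Peaks covered 8.43% of that flank and 8.39% of the window, so the dense stretch was not confined to the window on that side. Of the 14 edges the right edge of the chromosome 9 window had the largest ratio of inner to outer counts, with 11 peaks in the last 200 kb inside and 1 in the first 200 kb outside. At the left edge of the same window the counts were 8 inside and 1 outside, and at the right edge of the chromosome 7 window 14 and 4.

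Since the windows have fixed edges, the peaks beside an edge are given once. At the right edge of the chromosome 9 window the last peak inside had a score of 122 and a width of 686 bp, and the first outside a score of 303 and a width of 6184 bp. At the left edge of the K562 chromosome 1 window these were 60.1 and 306 bp inside and 58.4 and 440 bp outside. The score is the authors' own value for a peak. MACS, in the version named by the submitters, writes it as a p-value on a negative log10 scale times 10, and no peak of either list had less than 50.0.

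**Figure D2:**
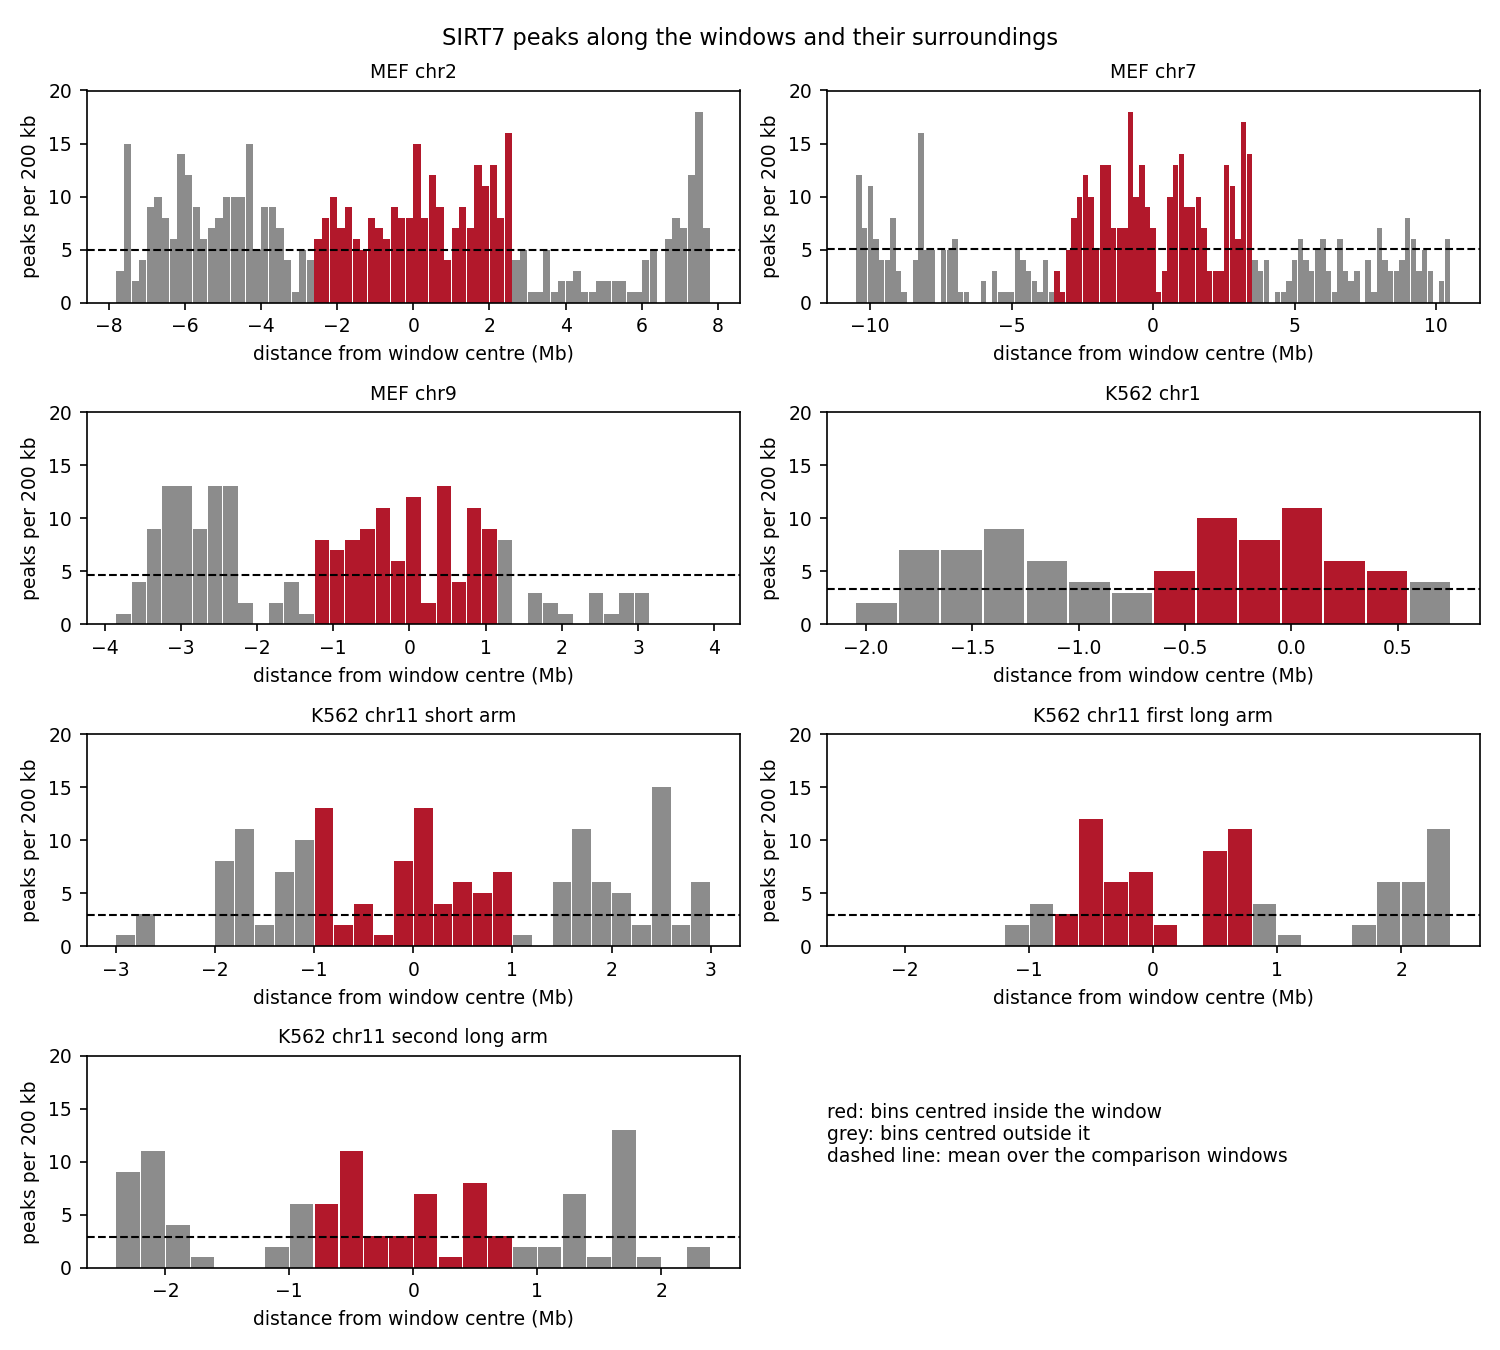
SIRT7 peaks per bin of 200 kb (y axis) by distance from the centre of each window in Mb (x axis). Bins centred inside the window are red, all others grey, and the comparison mean is a dashed line. In MEF chr9 and K562 chr1 the bin centred on the right edge is grey although it lies partly inside the window. In MEFs most red bins lie above the dashed line across the whole window, and in the K562 chromosome 11 windows a few bins hold most of the peaks.

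Set against the median within a comparison window, counts per bin varied less along the MEF chromosome 2 and 9 and K562 chromosome 1 windows. They varied more along the K562 chromosome 11 windows. No interval was computed for these ratios of variance to mean, and those of K562 rest on few bins. The 26 bins of 200 kb of the MEF chromosome 2 window held 4 to 16 peaks with a median of 8, and 25 of them exceeded the median of 4 in comparison bins. The variance to mean ratio of these counts was 0.999, where evenly random placement gives a value near 1, and the median within a comparison window was 1.99. In the chromosome 7 window the ratio was 2.23, against 2.27 within a comparison window. It was 1.27 in the 12 bins of the chromosome 9 window, against 1.46 within a comparison window. In the 6 bins of K562 chromosome 1 it was 0.893, against 1.30. The 3 windows of K562 chromosome 11 had ratios of 2.68, 3.01 and 2.11 over 10, 8 and 8 bins, against 1.92, 1.78 and 1.68 within a comparison window.

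In the MEF windows the fullest bin of chromosome 2 lay at its right end, from 90.0 to 90.2 Mb, and held 16 peaks. Chromosome 7 had 18 from 111.6 to 111.8 Mb, and chromosome 9 had 13 from 39.1 to 39.3 Mb. The sparsest held 4 peaks from 88.4 to 88.6 Mb of chromosome 2 and 2 from 38.9 to 39.1 Mb of chromosome 9. On chromosome 7 the bins from 109.2 to 109.4 Mb and from 112.6 to 112.8 Mb held 1 each. The longest peak-free stretch was 239 kb on chromosome 7, from 109127820 to 109367179, beside 106 kb on chromosome 2 from 89829750 to 89935890 and 128 kb on chromosome 9 from 37828701 to 37956253.

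In K562 the short-arm window had 13 peaks in each of the bins from 4.3 to 4.5 and from 5.3 to 5.5 Mb and 1 peak from 4.9 to 5.1 Mb, next to a peak-free stretch of 224 kb from 4957689 to 5182021. The first long-arm window had 12 peaks from 55.2 to 55.4 Mb and none from 56.0 to 56.2 Mb, within a stretch of 228 kb from 55989977 to 56218460. The second long-arm window had 11 from 58.0 to 58.2 Mb and 1 from 58.8 to 59.0 Mb, and its longest stretch was 196 kb from 58915750 to 59111808. On chromosome 1 the bins ranged only from 5 to 11, highest from 248.2 to 248.4 Mb and lowest from 247.6 to 247.8 and 248.6 to 248.8 Mb, and the longest stretch was 84.0 kb from 248462189 to 248546148. A peak-free stretch is not shown to lack SIRT7, since depth is unknown.

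The excess lay in the number of peaks more than in their size. The median width was 1038 bp (95% order-statistic interval 895 to 1219) in the MEF chromosome 2 window, 1064 bp (977 to 1295) in the chromosome 7 window and 995 bp (821 to 1178) in the chromosome 9 window. Their comparison windows had 974, 1042 and 944 bp, each inside the interval. In K562 the medians of the short-arm, first and second long-arm windows were 640 bp (530 to 743), 538 bp (463 to 593) and 509 bp (471 to 602), against 560, 560 and 558 bp. The chromosome 1 window of K562 differed, with a median of 816 bp (608 to 1101) against 538 bp (526 to 553). The comparison windows of that chromosome in the upper quartile of density, a reference added after the data were seen, had a median of 609 bp, at the lower end of the interval.

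Scores followed the same pattern. The median score was 149 (128 to 171), 141 (122 to 158) and 137 (121 to 183) in the MEF windows of chromosomes 2, 7 and 9, where the comparison windows had 149, 134 and 151. It was 86.9 (72.2 to 129), 105 (79.6 to 144) and 118 (92.9 to 160) in the 3 windows of K562 chromosome 11, against 107, 107 and 108. Only the chromosome 1 window of K562 had an interval beyond the comparison median, 102 (79.7 to 138) against 77.0, and the interval held the 82.9 of the upper-quartile windows. Among its peaks with a score of at least 100 the median was 174 (132 to 281). The difference from the comparison windows was -18, and the interval held their median.

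**Figure D3:**
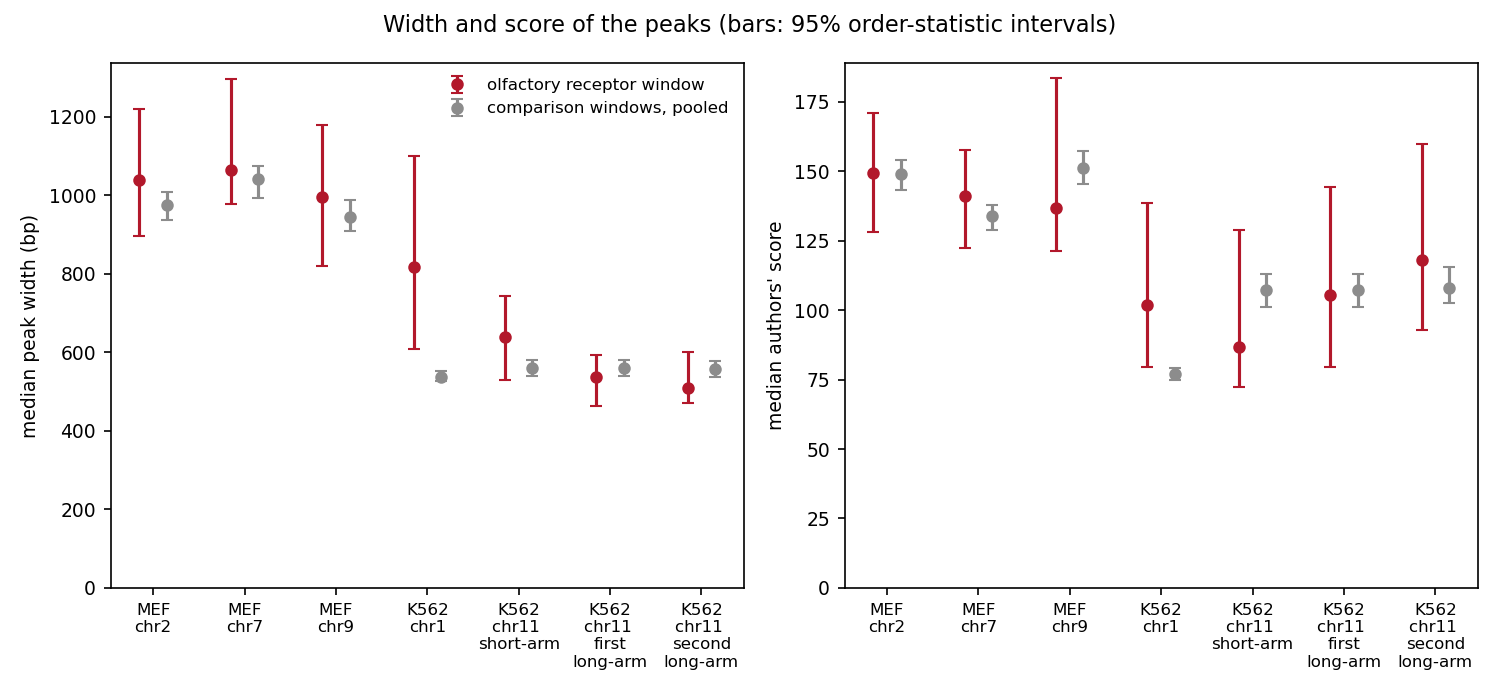
Median peak width in bp (left) and median authors' score (right) of the peaks in each olfactory receptor window (red) and of the pooled peaks of its comparison windows (grey), with 95% order-statistic intervals. The red and grey values are close in 6 of the 7 windows, and in the K562 chromosome 1 window both the width and the score are higher.

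With more peaks of like width, a larger part of the windows was covered. Peaks covered 8.39% of the chromosome 2 window, 7.96% of the chromosome 7 window and 7.85% of the chromosome 9 window in MEFs, against 4.62%, 4.80% and 4.21% of their comparison windows. The K562 chromosome 1 window was covered to 4.24% against 1.32%, a ratio of 3.21 and thus higher than its ratio of peak numbers. The short-arm window had 2.51% against 1.15% and the first long-arm window 1.94% against 1.13%. In the second long-arm window 1.53% was covered against 1.13%, with 53 of 78 comparison windows below it, so it stood out by number of peaks and less by covered length. By covered share, 30 of 32, 17 of 20 and 41 of 46 comparison windows lay below the MEF windows of chromosomes 2, 7 and 9. In K562 it was 172 of 174 for chromosome 1, 61 of 62 for the short-arm and 70 of 77 for the first long-arm window. Except in the short-arm window, fewer lay below than by number of peaks.

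In MEFs most width classes were denser in the windows. Peaks under 1 kb were 1.62 times (1.32 to 1.96), 1.63 times (1.36 to 1.94) and 1.78 times (1.33 to 2.33) as dense as in comparison windows on chromosomes 2, 7 and 9. For peaks of 1 to 2 kb these ratios were 1.87 (1.39 to 2.48), 1.95 (1.52 to 2.46) and 2.09 (1.37 to 3.08). For peaks of 2000 to 5250 bp they were 2.15 (1.53 to 2.95), 1.97 (1.47 to 2.58) and 1.68 (0.883 to 2.90). Above 6250 bp there were only 3, 4 and 1 peaks, with ratios of 1.02 (0.207 to 3.08), 1.19 (0.316 to 3.20) and 0.648 (0.0162 to 3.73), and no excess was detectable.

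Peaks of 5250 to 6250 bp, a range that takes in the length of a full L1 element, numbered 26, 24 and 12 in the 3 MEF windows. Their density was 5.00 per Mb on chromosome 2 against 2.55, a ratio of 1.96 (1.26 to 2.91), and 4.80 per Mb on chromosome 9 against 2.18, a ratio of 2.20 (1.12 to 3.91). On chromosome 7 it was 3.43 against 2.55 per Mb, and the interval of the ratio, 1.34 (0.850 to 2.03), held 1. Their median widths, bounded by this range, were 5948, 5938 and 5981 bp and their median scores 261, 287 and 281. In the comparison windows, peaks of this range had median widths of 5969, 5981 and 5975 bp and median scores of 276, 268 and 283. Peaks of this range made up 11.4% (Clopper-Pearson interval 7.55 to 16.2), 7.89% (5.12 to 11.5) and 11.2% (5.93 to 18.8) of the peaks in the windows. In the comparison windows they made up 10.3%, 10.1% and 9.40%, so the share did not differ beyond counting error. No repeat annotation of mm9 was used here, and whether L1 elements lie under them was not tested.

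In K562 wide peaks were few. The chromosome 1 window held 1 peak of 5250 to 6250 bp. The 63, 50 and 42 peaks of the chromosome 11 windows included none, which allows shares of up to 4.76%, 6.00% and 7.14%, and their comparison windows had 0.658% to 0.671%. In the 3 windows of chromosome 11 peaks under 1 kb had ratios of 2.18 (1.62 to 2.87), 2.28 (1.64 to 3.09) and 2.12 (1.50 to 2.89). Of the wider classes there, only that of 2000 to 5250 bp in the short-arm window had an interval above 1, with 5 peaks and a ratio of 3.88 (1.22 to 9.43). On chromosome 1 the ratio was higher for peaks of 1 to 2 kb, 5.37 times (2.98 to 8.95) with 15 peaks, than for those under 1 kb, 1.66 times (1.11 to 2.39) with 29 peaks. The difference between these classes was not tested.

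**Figure D4:**
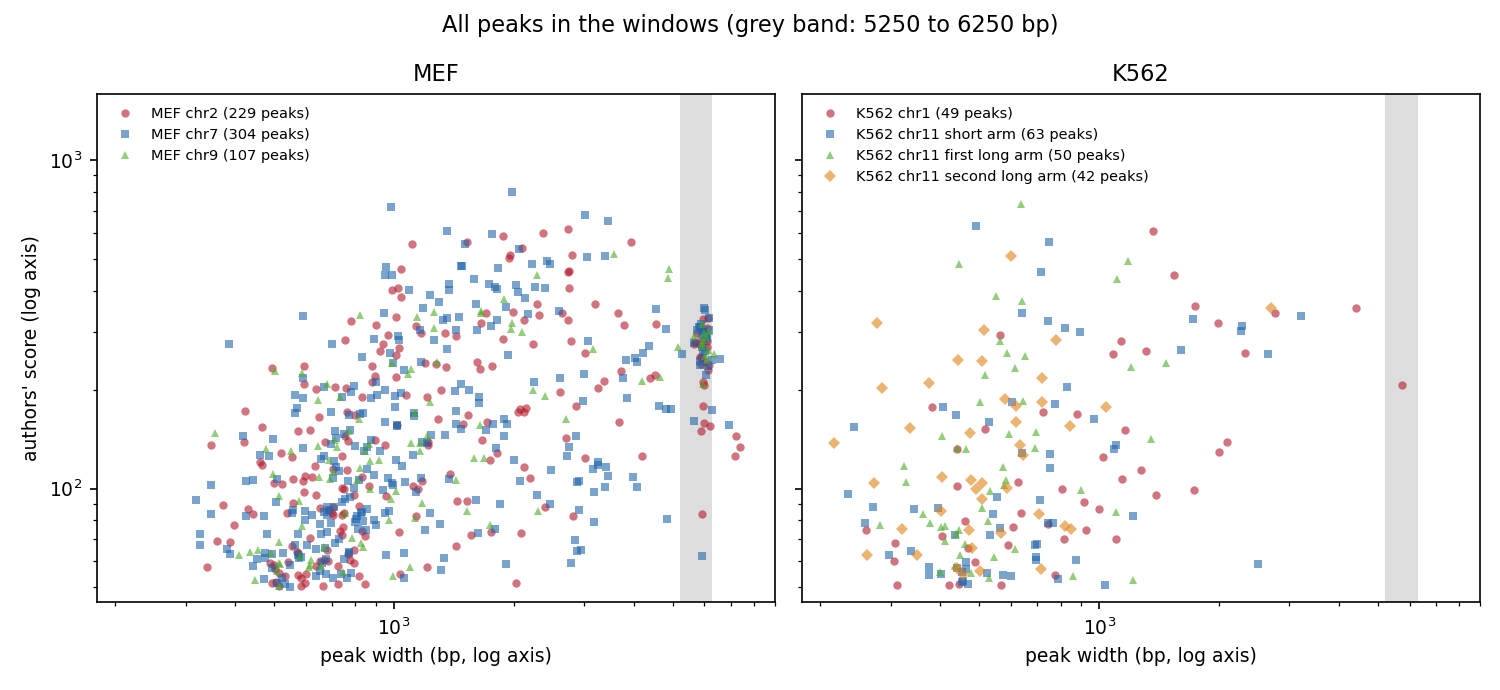
Width in bp (x axis, log) and authors' score (y axis, log) of each of the 640 MEF peaks (left) and 204 K562 peaks (right) in the windows, coloured by window, with the range of 5250 to 6250 bp shaded. The MEF peaks in the shaded range have median scores of 261 to 287 by window, and K562 has 1 peak there.

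The highest scores in the windows were 800 in MEFs, rank 129 of 72622, and 739 in K562, rank 172 of 44319. The MEF windows held 3 of the 726 peaks in the top 1% by score and the K562 windows 2 of 443, counts too small to set apart from the windows' shares of all peaks, 0.881% and 0.460%. The strongest MEF peaks lay on chromosome 7, from 111580168 to 111582142 (score 800, width 1975 bp) and from 111377272 to 111378252 (score 721, width 981 bp). On chromosome 2 the highest scores were 619, from 88678979 to 88681710, and 603, from 86823281 to 86825649. On chromosome 9 they were 517, from 39221114 to 39224669, and 466, from 38354043 to 38358931.

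The widest peaks of the MEF windows did not have the highest scores. They measured 7356 bp on chromosome 2 (87774280 to 87781635, score 134), 6898 bp on chromosome 7 (114407969 to 114414866, score 156) and 6347 bp on chromosome 9 (39304061 to 39310407, score 257). Across the peaks of a window, width and score rose together, with Spearman's rho of 0.591, 0.536 and 0.680 over 229, 304 and 107 peaks. This is a description across peaks of 1 list that share depth.

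The strongest K562 peaks of the first long-arm window lay from 55244444 to 55245078 (score 739, width 635 bp) and from 56484416 to 56485598 (score 495). Those of the short-arm window lay from 5937819 to 5938310 (score 630, width 492 bp) and from 5418456 to 5419203 (score 563). In the second long-arm window they lay from 59111809 to 59112410 (score 511) and from 57816232 to 57818925 (score 354), the latter also the widest there with 2694 bp. On chromosome 1 they lay from 248571162 to 248572527 (score 608) and from 248888395 to 248889931 (score 449), and the widest, of 5747 bp, from 247850738 to 247856484 with a score of 207. The widest peaks of the short-arm and first long-arm windows measured 3201 bp (6208258 to 6211458, score 336) and 1470 bp (55454142 to 55455611, score 242). On chromosome 11 the strongest peak of each window was 492 to 635 bp wide, and the second strongest 748, 1183 and 2694 bp.

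Peaks in the MEF windows also lay closer together. A neighbour within 10 kb was found for 65.1% (58.5 to 71.2), 70.4% (64.9 to 75.5) and 66.4% (56.6 to 75.2) of the peaks on chromosomes 2, 7 and 9, against 55.2%, 57.5% and 53.3% in the comparison windows, each below the interval. Denser stretches have more near neighbours by construction. In the comparison windows of the upper quartile, with 37.7, 38.6 and 38.3 peaks per Mb, the shares were 63.4%, 64.4% and 61.7%. Of these, the chromosome 2 and 9 values lay inside the intervals of the windows and the chromosome 7 value just below. Among the stronger peaks of chromosome 2, those with at least the median score of the list, the share in the window was 25.0% (17.4 to 33.9). The difference from the comparison windows was -3.44 percentage points, and the interval held their value.

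In K562 the share with a near neighbour was 49.0% (34.4 to 63.7) on chromosome 1, 55.6% (42.5 to 68.1) in the short-arm, 64.0% (49.2 to 77.1) in the first and 73.8% (58.0 to 86.1) in the second long-arm window, against 43.6%, 56.0%, 56.3% and 56.0%. Only the last interval lay above its comparison value. It held the 60.3% of the upper-quartile windows.

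**Figure D5:**
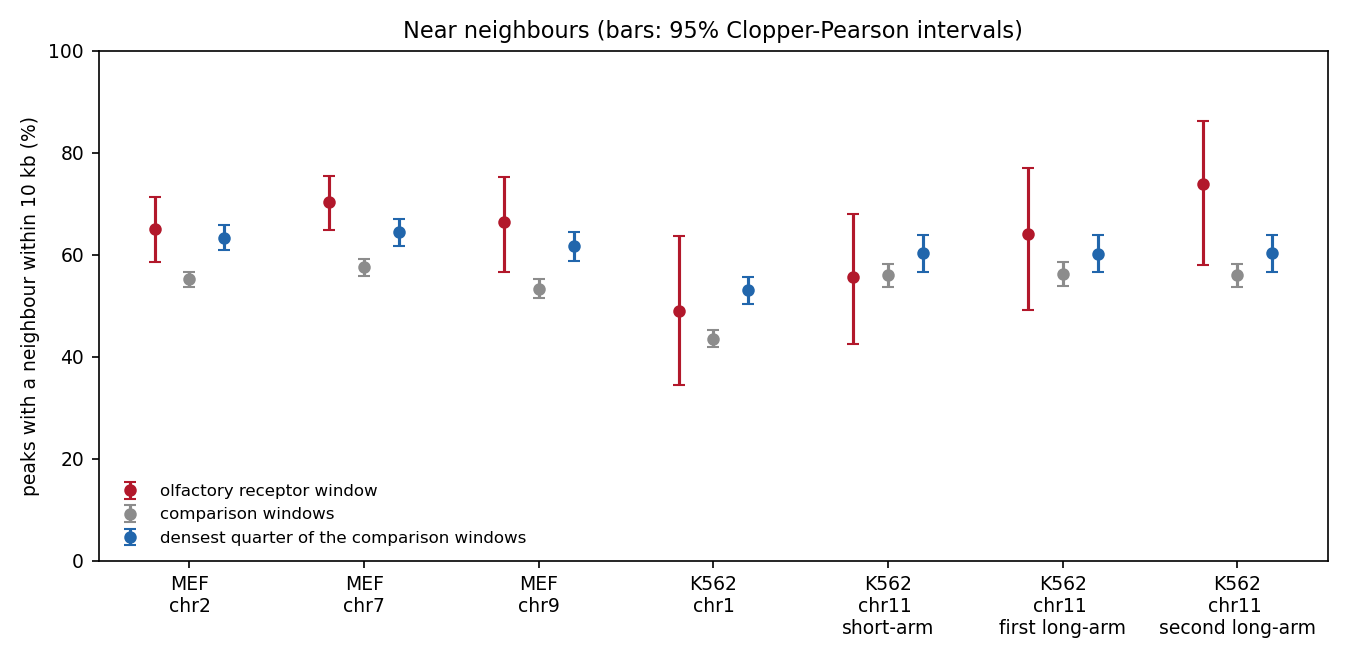
Share of peaks with a neighbouring peak within 10 kb, in percent (y axis), for the olfactory receptor windows (red), their comparison windows (grey) and the comparison windows in the upper quartile of density (blue), with 95% Clopper-Pearson intervals. In MEFs the red values of 65.1% to 70.4% lie above the grey ones and close to the blue ones.

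Neighbours less than 1 kb away were counted as well. Denser stretches have more of these by construction too, and no upper-quartile reference was computed for them. On MEF chromosome 7, 97 peaks (31.9%, 26.7 to 37.5) had a neighbour within 1 kb against 19.4% in the comparison windows, and on chromosome 9, 29 peaks (27.1%, 19.0 to 36.6) against 18%. On chromosome 2 the shares were 21.4% (16.3 to 27.3) and 19.0%. They formed 48 groups on chromosome 7, nearly all pairs, with 1 group of 3 from 111686027 to 111693545. In the second long-arm window of K562, 21 of 42 peaks (50.0%, 34.2 to 65.8) had such a neighbour, and the interval held the 35.4% of its comparison windows. They included a group of 4 from 58072472 to 58075832. The share was 31.7% (20.6 to 44.7) against 34.8% in the short-arm window, 40.0% (26.4 to 54.8) against 35.3% in the first long-arm window and 32.7% (19.9 to 47.5) against 21.6% on chromosome 1. The first long-arm window held groups of 4 from 55754903 to 55758207 and from 56316923 to 56320454.

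With peaks less than 1 kb apart merged, the MEF shares with a neighbour within 10 kb stood 11.2, 10.9 and 8.30 percentage points above their comparison windows on chromosomes 2, 7 and 9, from 9.90, 12.9 and 13.0 before. After this merging the counts fell to 204, 255 and 91 in the MEF windows and to 40, 52, 37 and 29 in those of K562. The ratios to comparison windows treated alike were 1.75, 1.61 and 1.73 in MEFs and 2.11, 2.20, 1.99 and 1.56 in K562, and each interval stayed above 1. The lowest was that of the second long-arm window, 1.56 (1.04 to 2.25), with 85.9% of its comparison windows below it.

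Some olfactory receptor genes are near-copies of others. How the authors treated reads that map to several places is not given in the sources used here. Exact copies of peak pairs, with the same widths and gap as another pair of the list, took in 4 peaks of the MEF chromosome 7 window and none in the other 6. Without such pairs the chromosome 7 ratio was 1.71 (1.52 to 1.93). Other effects of reads with several matches were not tested, nor was the copy number of the K562 windows, which was not measured here.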

How the data were processed

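The data were 2 lists of SIRT7 ChIP-seq peaks, 1 for MEFs on mm9 and 1 for K562 on hg19. Per the labels' protocols, chromatin was fixed with formaldehyde, sheared to fragments of 150 to 300 bp and, for SIRT7, taken from nuclear extracts. Tools listed in the submitters' processing notes, without their order, are MACS 1.4.2, Bowtie, Trimmomatic 0.36, SAMtools 0.1.19, deepTools 2.4.2 and FastQC 0.11.3, and the peak names have the form that MACS gives. Settings, the control for peak calling and any pooling of replicates: not given in the sources used here. The deposited value of a peak is a score by the authors' peak caller, used here within a list only, for description, ranks and thresholds. Read depth is unknown.

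Positions are given counting from 1. Comparison windows were laid end to end from both edges of each window, between the first and last peak of the chromosome, held at least 1 peak and touched no olfactory receptor window. Ratios carry exact conditional Poisson intervals, shares Clopper-Pearson intervals and medians order-statistic intervals, all at 95%. A count of 0 was taken to allow up to 3 peaks. In each window the 2 highest-scoring peaks, the widest peak, the extreme bins of 200 kb and the longest peak-free stretch are named; other peaks and stretches were chosen after their values were seen. The upper-quartile and all-autosome references, the flanks without long peak-free stretches, the width classes other than 5250 to 6250 bp and over 2 kb, and the groups of peaks under 1 kb apart were added after values were seen. Windows and measures were chosen with earlier results of these data known. Alternatives are given in the closing section. Computations ran in Python 3.11.15 with scipy 1.17.1, pandas 2.3.3 and numpy 2.4.6, and plots in matplotlib 3.10.9. No sequence is shown, because no genome of mm9 or hg19 was used here.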

Additional observations from a re-analysis of the deposited data

How the results depend on the processing

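Density ratios stayed above 1 in all 7 windows under the 10 alternatives run, from 1.50 to 1.84 on MEF chromosome 2, 1.60 to 2.41 on chromosome 7 and 1.59 to 2.12 on chromosome 9, and in K562 from 1.40 to 3.06 on chromosome 1, 1.31 to 2.20 in the short-arm, 1.99 to 4.61 in the first and 1.56 to 2.10 in the second long-arm window. With flanks as the reference, density ratios were 1.50 (MEF chromosome 2), 2.41 (chromosome 7), 1.40 (K562 chromosome 1), 1.31 (short arm) and 4.61 (first long arm), and ratios of covered share 1.39, 2.69, 2.29, 1.27 and 3.19. Without peak-free stretches of 1 Mb or more in the flanks the first long-arm ratio was 2.44, and the other 6 were as before (1.50, 2.41, 1.40 and 1.31 among them). The K562 chromosome 1 density ratio was 3.06 both with scores of at least 100 and with scores not below the list's median. The share of comparison windows with fewer peaks became 100% for MEF chromosome 7 with comparison windows moved along by a part of a window length and without recurring pairs, 100% for the short-arm window with shifted windows, and 85.9% for the second long-arm window with merged peaks. Among differences whose main interval missed the comparison value, the sign changed for the near-neighbour share of MEF chromosome 2 (25.0%, 17.4 to 33.9, at scores at or above the median). It also changed for the median score of K562 chromosome 1 (174, 132 to 281, at scores of at least 100, and 171, 129 to 281, at or above the median). Each of these intervals held its comparison value, so no reversal was shown beyond counting error. Signs also changed for differences within their main interval, as for the near-neighbour share of the first long-arm window (33.3% at scores of at least 100, a difference of -9.55 points) and the median score of the short-arm window (231, a difference of 26.8). The cause of these changes was not tested. Merged peaks and higher scores leave fewer peaks by construction. Without comparison windows at peak-free stretches of 1 Mb or more, or with windows shortened by 10% at both ends, each density ratio stayed within its interval. No paired analysis was possible because only 1 peak list was at hand for either cell type. Unknown depth limits all counts of peaks.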
